A study of Rattus norvegicus with 6 samples.

Results

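The report covers 7 mature miRNAs that are often taken as stable references when small RNA is normalised: rno-miR-103-3p, rno-miR-107-3p, rno-miR-191a-5p, rno-miR-425-5p, rno-miR-186-5p, rno-miR-361-5p and rno-miR-361-3p (rno for rat, left out below). They were chosen by name, out of 1071 rows of the deposited count table (552 known rat miRNAs and 519 predicted by the authors), and all 7 were listed and passed the filter on low counts. The libraries came from fibroblasts of the sciatic nerve of wild-type, untreated rats. The 3 EV libraries were made from extracellular vesicles of these cells (exosomes in the labels) and the 3 Intracellular libraries from intracellular RNA, against which the vesicles were set. All samples carry batch number 1, and no age, sex or strain is labelled. Since nothing says that the replicates came from separate cultures or animals, the p-values cover no more than the differences between these libraries, which could be technical.

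A mature miRNA guides an Argonaute protein to messenger RNAs that pair with its seed, the stretch from base 2 to base 8. A reference miRNA is one whose level is taken to be the same in every sample, so that other miRNAs can be expressed relative to it. In vesicles this is a particular difficulty, because ribosomal and small nuclear RNAs that serve as references in cells are not packaged like miRNAs, and no miRNA is a general standard. The question of the comparison was which of these miRNAs kept the same ratio to one another inside the vesicles as inside the cells.

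The sequences are shown because they decide which of the 7 can be told apart by sequencing. All 7 matched mature sequences of RefSeq (build GRCr8), identical to those in the deposited table. The capitals mark the seed.
miR-103-3p: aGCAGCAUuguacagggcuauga
miR-107-3p: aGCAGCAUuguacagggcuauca
miR-191a-5p: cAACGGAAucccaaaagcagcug
miR-425-5p: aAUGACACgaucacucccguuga
miR-186-5p: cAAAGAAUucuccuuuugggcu
miR-361-5p: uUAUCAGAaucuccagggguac
miR-361-3p: cCCCCAGGugugauucugauucgu

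The 7 sequences hold 6 different seeds. miR-103-3p and miR-107-3p share theirs and differ by a single substitution, G22C, counted from the 5′ end with the base of miR-103-3p first. How the authors divided reads between near-identical miRNAs is not given in the sources used here, so the separate levels of this pair are uncertain.

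In GRCr8, which is not the build of the authors' processing (Rnor_6.0), the RefSeq locus found for miR-103-3p (Mir103a2) lies at chr3:138963278-138963300 (plus strand) within Pank2, and that of miR-107-3p at chr1:241750431-241750453 (minus strand) within Pank1. Both host genes encode pantothenate kinases, which start the synthesis of coenzyme A. The opposite arms of miR-103-3p are named miR-103-1-5p and miR-103-2-5p, after separate precursors, so its counts need not come from Mir103a2 alone. miR-191a-5p (chr8:118142641-118142663, plus strand) and miR-425-5p (chr8:118143094-118143116, plus strand) lie 430 bases apart within Dalrd3. miR-186-5p lies at chr2:249241664-249241685 (plus strand) within Zranb2, which encodes a splicing factor. miR-361-5p (chrX:82438506-82438527) and miR-361-3p (chrX:82438466-82438489) are the arms of 1 hairpin on the minus strand within Chm, the gene of a Rab escort protein that is lost in choroideremia.

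The EV libraries held 81211 to 105578 counts and the Intracellular libraries 1839047 to 8859302, so a single EV count was worth 9.47 to 12.3 CPM, the counts per 1000000 of a library. CPM are shares of a library, so less of a miRNA and more of the other miRNAs cannot be told apart. They measure neither the number of vesicles nor the amount of a miRNA per vesicle. Intracellular replicate 1 stood apart. Its scaling factor by trimmed mean of M-values (TMM, which scales libraries so that most miRNAs do not change) was 0.557, against 0.963 and 0.935 in Intracellular replicates 2 and 3, and 271 of the 328 tested miRNAs (82.6%) had their lowest Intracellular CPM in it. The same held for 6 of the 7 reference miRNAs, miR-361-3p being the exception. All 8 fibroblast and mesenchymal miRNAs of the fixed list were detected, with summed levels of 440956 to 465565 CPM in EV, against 475402 to 496309 CPM in the Intracellular ones. With TMM 3 of the 8 were called higher in EV and 4 lower, where 25.6% of all tested were called higher and 17.1% lower. The 3 liver and serum miRNAs summed to 11612 to 14069 CPM in EV against 397 to 476 CPM in Intracellular libraries. Most of the EV sum was miR-122-5p (a mean of 12119 CPM in EV, against 195 CPM), while neither miR-194-5p (0.14 on the log2 scale with TMM) nor miR-192-5p (0.15) was called. The 2 erythroid miRNAs summed to 152 to 222 CPM against 2.03 to 5.98 CPM. They rest on 3 to 4 (miR-451-5p) and 12 to 14 (miR-486) counts per EV library. The 3 muscle miRNAs summed to 49.3 to 152 CPM in EV against 9.06 to 12.6 CPM, with miR-206-3p called higher (log2 fold change 4.52, from 25 EV counts). miR-1-3p averaged 7.26 CPM in EV against 7.24 CPM, and neither it nor miR-133a-3p passed the filter. Of the 3 leukocyte miRNAs, miR-142-3p had 2, 2 and 0 counts in EV replicates 1 to 3 and was not called, and miR-142-5p and miR-223-3p had 0 counts in EV. Neither of the 2 endothelial miRNAs was called, miR-126a-3p averaging 316 CPM in EV against 300 CPM. Of the neuronal miRNAs only miR-9a-5p was listed, and it was called lower in EV (log2 fold change -0.89 with TMM). Whether any of these miRNAs came from sources other than the fibroblasts was not tested, nor was any part of such sources in the levels of the reference miRNAs.

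The 7 miRNAs together took 0.788%, 0.690% and 0.766% of the counts in EV replicates 1 to 3, against 0.405%, 0.719% and 0.670% in Intracellular replicates 1 to 3. The groups overlapped, with Intracellular replicate 1 the lowest of the 6. miR-103-3p, miR-191a-5p and miR-186-5p were abundant and the other 4 were not. In EV the order by mean CPM was miR-191a-5p, miR-103-3p, miR-186-5p, miR-107-3p, miR-361-3p, miR-425-5p and miR-361-5p. In Intracellular libraries miR-103-3p came before miR-191a-5p and the others kept that order. Among neighbours in the EV order, miR-191a-5p and miR-103-3p overlapped, as did miR-107-3p and miR-361-3p, miR-361-3p and miR-425-5p, and miR-425-5p and miR-361-5p. In Intracellular libraries the overlapping neighbours were miR-103-3p and miR-191a-5p, miR-107-3p and miR-361-3p, and miR-425-5p and miR-361-5p. These levels carry no length term, and adapter ligation favours some sequences, so the order of different miRNAs is that of counts.

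**Figure D1:**
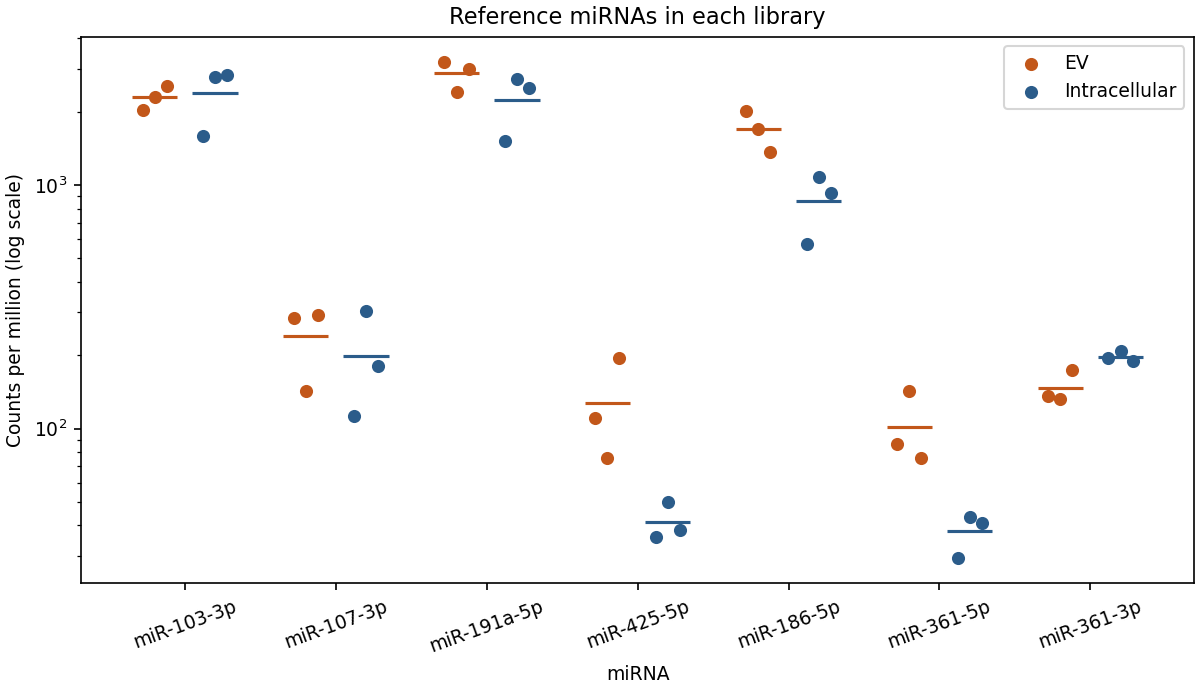
CPM (log axis) of the 7 reference miRNAs, with 1 point per library and a line at the mean of each group, EV left of Intracellular. miR-425-5p, miR-186-5p and miR-361-5p lie higher in all 3 EV libraries, miR-361-3p lies lower, and the points of the other miRNAs overlap.

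miR-103-3p, which targets Dicer and genes of insulin signalling in mammals, stood at 2032, 2292 and 2556 CPM in EV replicates 1 to 3, against 1589.95, 2778 and 2822 CPM in Intracellular replicates 1 to 3. The EV values fell between the low Intracellular replicate 1 and the other Intracellular libraries. Relative to the TMM scaling, miR-103-3p fell by 0.67 on the log2 scale (SE 0.19, edgeR adjusted p = 0.00876), while with libraries scaled to their total counts the log2 fold change was -0.06 (edgeR adjusted p = 0.909). Its lower call thus rests on the scaling. It was also lost without EV replicate 1 (edgeR adjusted p = 0.0670), and its adjusted p ranged from 0.000132 to 0.959 over the alternatives.

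miR-107-3p, the paralogue of miR-103-3p with the same seed, stood at 283, 142 and 292 CPM in EV replicates 1 to 3, against 113, 304 and 181 CPM in Intracellular replicates 1 to 3. The groups overlapped widely, and the log2 fold change was -0.33 with TMM (SE 0.30, edgeR adjusted p = 0.381) and 0.25 with total counts (edgeR adjusted p = 0.734). As a share of the summed counts of the pair, miR-107-3p took 12.2%, 5.84% and 10.3% in EV replicates 1 to 3, against 6.61%, 9.86% and 6.03% in Intracellular replicates 1 to 3. The shares overlapped too, and both groups held libraries near 6% and near 10%.

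miR-191a-5p, long used as a reference because it is found at similar levels across many tissues, stood at 3214, 2415 and 3000.1 CPM in EV replicates 1 to 3, against 1513, 2724 and 2496 CPM in Intracellular replicates 1 to 3. By CPM the groups overlapped. With TMM scaling they did not, at 2379, 1929 and 2565 in EV replicates 1 to 3, against 2719, 2830 and 2672 in Intracellular replicates 1 to 3. The log2 fold change was -0.26 with TMM (SE 0.18, edgeR adjusted p = 0.264) and 0.36 with total counts (SE 0.28, edgeR adjusted p = 0.395), so its sign turned with the scaling and neither fit called it. Its adjusted p ranged from 0.0280 to 0.943 over the alternatives.

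miR-425-5p, the neighbour of miR-191a-5p in Dalrd3, stood at 111, 75.8 and 195 CPM in EV replicates 1 to 3, against 35.9, 50.1 and 38.3 CPM in Intracellular replicates 1 to 3. By CPM all EV libraries were above all Intracellular ones, but on few counts, with 9, 8 and 18 in the EV libraries. With TMM scaling the groups overlapped, at 82.0, 60.5 and 167 in EV replicates 1 to 3, against 64.5, 52.1 and 41.0 in Intracellular replicates 1 to 3. miR-425-5p rose by 0.98 on the log2 scale with TMM (SE 0.38, edgeR adjusted p = 0.0447) and by 1.61 with total counts (edgeR adjusted p = 0.00792). With TMM the call was lost without EV replicate 1 (edgeR adjusted p = 0.0729), without EV replicate 3 (0.46 on the log2 scale, edgeR adjusted p = 0.410), without Intracellular replicate 2 (edgeR adjusted p = 0.0864) and without Intracellular replicate 3 (edgeR adjusted p = 0.116), as well as with DESeq2 (adjusted p = 0.0541). Its adjusted p ranged from 0.000614 to 0.568 over the alternatives.

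miR-186-5p stood at 2019, 1695 and 1365 CPM in EV replicates 1 to 3, against 574, 1081 and 929.6 CPM in Intracellular replicates 1 to 3. The groups did not overlap, and the mean CPM in EV was 1.97 times that in Intracellular libraries. With total counts it rose by 0.98 on the log2 scale (SE 0.33, edgeR adjusted p = 0.0188), while with TMM the log2 fold change was 0.35 (SE 0.19, edgeR adjusted p = 0.142). Of the 3 abundant miRNAs it was the one whose CPM, without TMM scaling, separated the groups.

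miR-361-5p stood at 86.2, 142 and 75.8 CPM in EV replicates 1 to 3, against 29.4, 43.5 and 40.7 CPM in Intracellular replicates 1 to 3, and the groups did not overlap. The EV values rest on 7, 15 and 7 counts, and the exact 95% interval of the lowest, which covers counting error only, ran from 30.5 to 156 CPM. The log2 fold change was 0.81 with TMM (SE 0.36, edgeR adjusted p = 0.0751) and 1.43 with total counts (edgeR adjusted p = 0.0214). With TMM it was called higher without Intracellular replicate 1 (0.94 on the log2 scale, edgeR adjusted p = 0.0481).

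miR-361-3p, the opposite arm of the same hairpin, went the other way. It stood at 135, 133 and 173 CPM in EV replicates 1 to 3, from 11, 14 and 16 counts, against 194, 208 and 189 CPM in Intracellular replicates 1 to 3. All EV libraries were below all Intracellular ones. It fell by 1.11 on the log2 scale with TMM (SE 0.30, edgeR adjusted p = 0.00651), while with total counts the log2 fold change was -0.42 (edgeR adjusted p = 0.499). The TMM call was lost without EV replicate 1 (edgeR adjusted p = 0.0505), in a range of 3.9e-05 to 0.499 over the alternatives.

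With TMM 1 of the 7 was thus called higher in EV (miR-425-5p) and 2 lower (miR-103-3p and miR-361-3p), where 25.6% of the 328 tested miRNAs were called higher and 17.1% lower. Without EV replicate 1 none of the 7 was called with edgeR, although 4 had an unadjusted p under 0.05, and DESeq2 on all 6 libraries called 2. With total counts 3 were called higher (miR-425-5p, miR-186-5p and miR-361-5p) and 0 lower with edgeR, where 32.6% of all tested were called higher and 0.915% lower, and 3 of the 7 had an unadjusted p under 0.05. By CPM alone, 3 of the 7 were higher in EV with no overlap, against 41.8% of all tested, and 1 was lower, against 3.66%. The median log2 fold change of the 7 was -0.26 with TMM, against -0.06 for all tested, and 0.36 with total counts, against 0.55 for all tested. The median absolute log2 fold change was 0.67 for the 7 and 0.69 for all tested with TMM, and 0.42 and 0.66 with total counts.

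**Figure D2:**
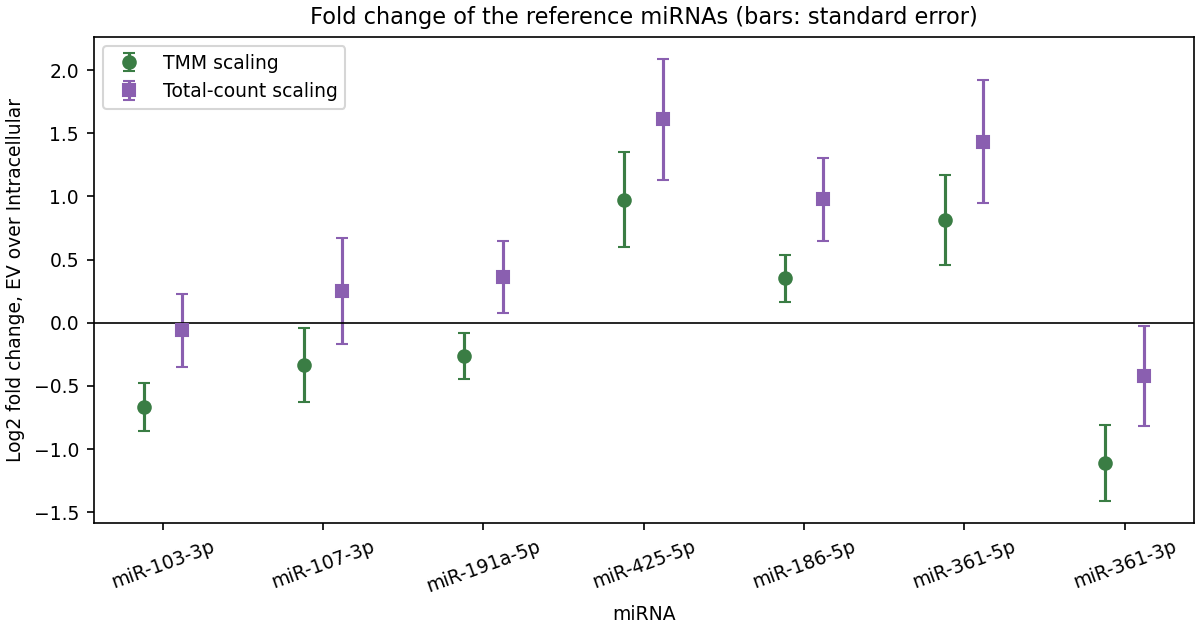
Log2 fold change of EV over Intracellular for the 7 reference miRNAs with TMM scaling (circles) and total-count scaling (squares), with bars of 1 standard error. The step between the scalings is about the same for each miRNA, and the signs of miR-107-3p and miR-191a-5p turn with it.

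Ratios between miRNAs of the same library do not depend on how libraries are scaled. For each of the 21 pairs the log2 ratio of counts (with 0.5 added to each) was compared between the groups. The EV and Intracellular values did not overlap for 13 of the 21 pairs, a share of 61.9%, where 55.3% of the 53628 pairs among all tested miRNAs did not overlap. Each of these 13 pairs had an exact 2-sided permutation p of 0.1, the smallest that 3 against 3 libraries can give, and 0.162 adjusted over the 21 pairs, so no pair could pass a threshold of 0.05. The mean log2 ratio changed by less than 0.5 for 6 of the 21 pairs, a share of 28.6%, against 25.8% of all pairs. By both counts the reference miRNAs lay near the background.

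The most abundant pair was miR-103-3p over miR-191a-5p. This ratio was 0.632, 0.949 and 0.852 in EV replicates 1 to 3, against 1.05, 1.02 and 1.13 in Intracellular replicates 1 to 3. It was lower in every EV library than in any Intracellular one, although the mean difference was only -0.41 on the log2 scale, and the 9 differences between an EV and an Intracellular library ran from -0.84 to -0.10 (exact permutation p = 0.1). Over the 6 libraries its SD of 0.30 was the smallest of the 21 pairs.

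The smallest mean difference was that of miR-107-3p over miR-191a-5p, at -0.05 on the log2 scale. The ratio was 0.0881, 0.0588 and 0.0975 in EV replicates 1 to 3, against 0.0744, 0.112 and 0.0725 in Intracellular replicates 1 to 3, with wide overlap (exact permutation p = 1). Its 9 differences ran from -0.88 to 0.45, and the sign turned without EV replicate 2 (0.16) or without Intracellular replicate 2 (0.15). miR-425-5p over miR-361-5p changed by 0.13, with 9 differences from -1.15 to 1.39 (exact permutation p = 0.8). Its small mean difference rests on 35 and 29 EV counts in all, and without EV replicate 3 it was -0.40.

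The other pairs under 0.5 were miR-103-3p over miR-107-3p at -0.36 (9 differences from -1.15 to 0.78), miR-103-3p over miR-361-3p at 0.36 (-0.06 to 1.03) and miR-186-5p over miR-361-5p at -0.45 (-1.10 to 0.18). The groups overlapped in all 3. Of the 6 pairs with a small difference, only miR-103-3p over miR-191a-5p had more than 100 counts of both miRNAs in every library, and that was the pair whose groups did not overlap.

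The largest change was between miR-425-5p and miR-361-3p. miR-425-5p over miR-361-3p was 0.818, 0.571 and 1.13 in EV replicates 1 to 3, against 0.185, 0.241 and 0.202 in Intracellular replicates 1 to 3, a log2 difference of 1.97 with 9 differences from 1.28 to 2.59. In every EV library the ratio was above any Intracellular value (exact permutation p = 0.1). miR-103-3p over miR-425-5p changed by -1.61 (-2.53 to -0.62), miR-103-3p over miR-361-5p by -1.48 (-2.14 to -0.77) and miR-186-5p over miR-361-3p by 1.39 (0.56 to 2.28), again with no overlap.

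The arms of the miR-361 hairpin changed by nearly as much against each other. miR-361-5p made up 38.9% of the counts of both arms in EV replicate 1 (exact 95% interval 17.3% to 64.3%), 51.7% in EV replicate 2 (32.5% to 70.6%) and 30.4% in EV replicate 3 (13.2% to 52.9%). In Intracellular replicates 1 to 3 it made up 13.1% (10.0% to 16.8%), 17.3% (14.8% to 20.01%) and 17.7% (16.1% to 19.5%). The shares did not overlap between the groups, while the interval of EV replicate 1 and that of EV replicate 3 reach down into the range of the Intracellular values. The log2 ratio of miR-361-5p over miR-361-3p differed by 1.84, with 9 differences from 1.08 to 2.81 (exact permutation p = 0.1), and leaving out any 1 library gave 1.52 to 2.13.

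The neighbours in Dalrd3 also differed in their ratio. miR-191a-5p over miR-425-5p was 29.0, 31.9 and 15.4 in EV replicates 1 to 3, against 42.2, 54.4 and 65.2 in Intracellular replicates 1 to 3. All EV values were lower, with a log2 difference of -1.19 and 9 differences from -2.12 to -0.48 (exact permutation p = 0.1). Of the opposite arms, miR-191a-3p had 0, 1 and 2 counts in the EV libraries and 6, 21 and 77 in the Intracellular ones. miR-425-3p and miR-107-5p had 0 counts in EV, which allows up to 10.7 CPM over the pooled EV libraries. These arms did not pass the filter and gave no comparison.

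**Figure D3:**
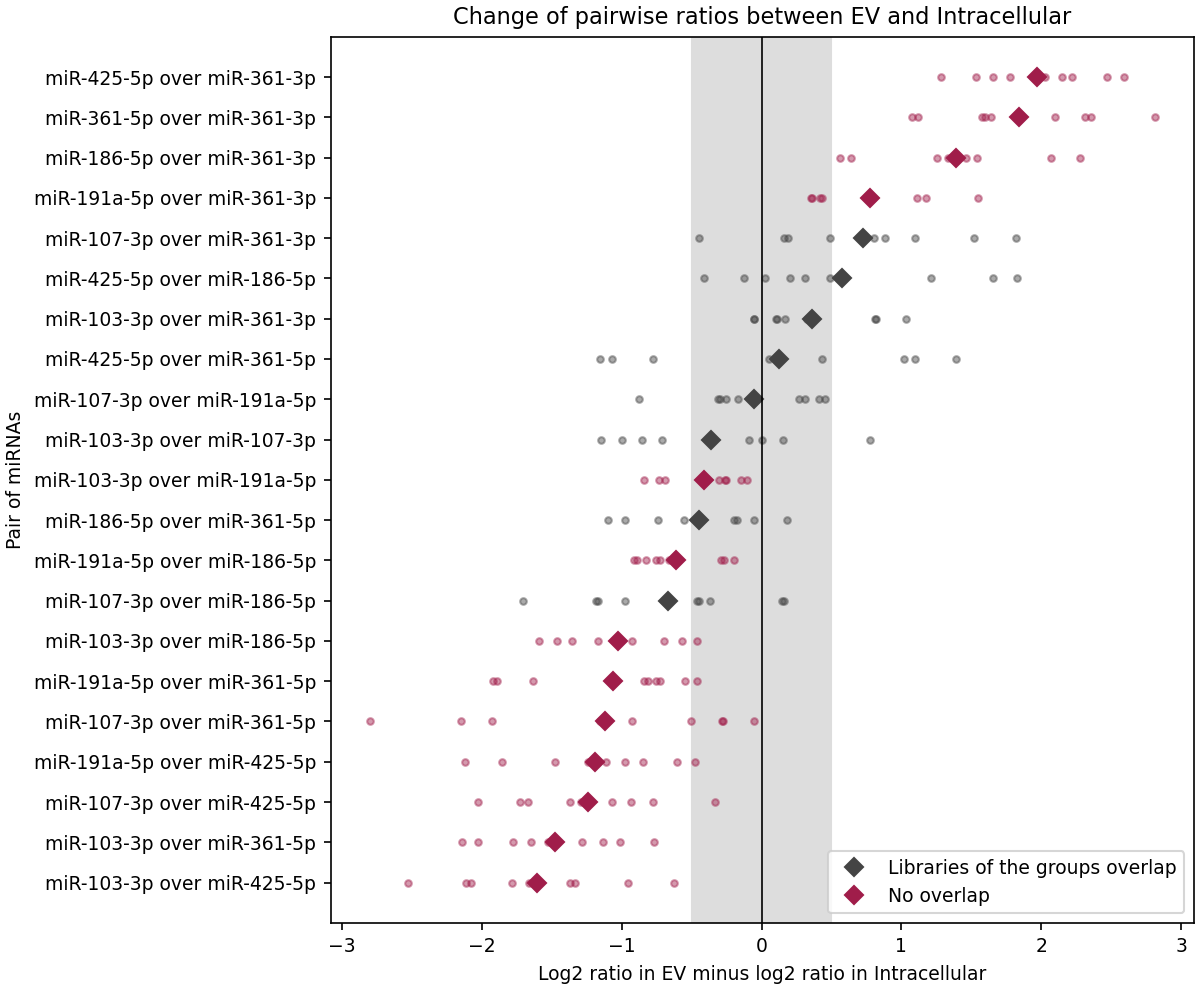
Difference of the log2 ratio, EV minus Intracellular, for the 21 pairs of reference miRNAs: diamonds are differences of group means, small points the 9 differences between single libraries, and the grey band marks 0.5 either way. The differences run from -1.61 to 1.97, and 6 diamonds lie in the band.

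Sorted by these differences, which was done after the values were seen and so carries no test, the miRNAs can be set out in 3 sets without a sharp border. miR-103-3p, miR-107-3p and miR-191a-5p changed by 0.41 or less against one another, and miR-425-5p, miR-186-5p and miR-361-5p by 0.13 to 0.58. Against miR-103-3p, miR-361-3p changed by 0.36, less than miR-191a-5p did. Against miR-425-5p, miR-186-5p and miR-361-5p the ratios of miR-103-3p, miR-107-3p and miR-191a-5p were lower in EV in all 9 pairs, by 0.61 to 1.61 on the log2 scale, and 8 of these pairs did not overlap, miR-107-3p over miR-186-5p being the exception. miR-361-3p had a lower mean ratio in EV to each of the others, with overlap against miR-103-3p and miR-107-3p.

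Between abundant miRNAs the best measured change was that of miR-186-5p. miR-191a-5p over miR-186-5p was 1.59, 1.425 and 2.20 in EV replicates 1 to 3, against 2.64, 2.52 and 2.68 in Intracellular replicates 1 to 3, and miR-103-3p over miR-186-5p was 1.01, 1.35 and 1.87 against 2.77, 2.57 and 3.04. Neither ratio overlapped between the groups, and the log2 differences were -0.61 and -1.03 (exact permutation p = 0.1 for each). When the fit across all miRNAs was scaled by miR-191a-5p alone, miR-186-5p rose by 0.64 on the log2 scale (edgeR adjusted p = 0.0365), and when scaled by miR-103-3p alone it rose by 1.06 (edgeR adjusted p = 0.000525). With the fit scaled by miR-186-5p alone, the log2 fold change of miR-191a-5p was -0.59 (edgeR adjusted p = 0.0561), which was not called. That of miR-103-3p was then -0.99 (edgeR adjusted p = 0.00507). Such a fit takes the level of the scaling miRNA as free of error.

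The geNorm M of a miRNA is the mean SD, over libraries, of its log2 ratios to the other candidates, and a lower M marks a steadier reference. Over all 6 libraries M was lowest for miR-191a-5p (0.506), followed by miR-186-5p (0.592), miR-103-3p (0.610), miR-107-3p (0.631), miR-361-3p (0.771), miR-361-5p (0.789) and miR-425-5p (0.837). A low M does not show that a ratio was the same in vesicles and cells. Against each of the other miRNAs except miR-107-3p, the ratio of miR-191a-5p did not overlap between EV and Intracellular. Within the Intracellular libraries M ran from 0.231 for miR-191a-5p to 0.444 for miR-107-3p. Within EV it ran from 0.400 for miR-361-3p to 0.725 for miR-361-5p. For 6 of the 7 M was higher in EV than in Intracellular libraries, and for each of the 7 it was higher over both groups together than within either. The EV values carry more counting error. The EV SD of the log2 ratio was at or under that expected from counting alone in 7 of the 21 pairs, against 0 of 21 in Intracellular libraries. Over all 6 libraries the 3 most abundant miRNAs had the 3 lowest values of M, but this did not hold within the groups. Within EV the lowest was that of miR-361-3p, from 41 counts in all. Within Intracellular libraries miR-361-5p (0.243) lay below miR-103-3p (0.271). The part of counting error in the order of M was not tested.

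**Figure D4:**
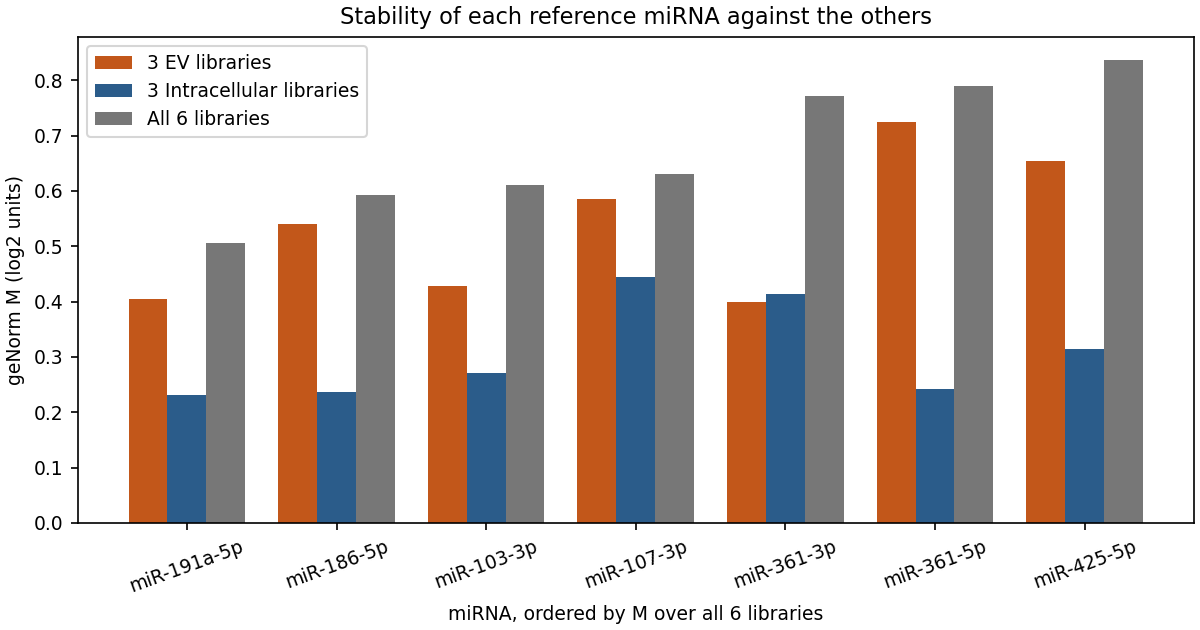
geNorm M (mean SD of the log2 ratios to the other 6 miRNAs) of each reference miRNA within the 3 EV libraries, within the 3 Intracellular libraries and over all 6, ordered by the last. miR-191a-5p has the lowest M over all 6 libraries (0.506) and miR-425-5p the highest (0.837).

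Spread within a group depended on the scaling in Intracellular libraries. By CPM the coefficient of variation of miR-103-3p, miR-191a-5p and miR-186-5p was 11.4%, 14.4% and 19.3% in EV, against 29.2%, 28.7% and 30.3% in Intracellular libraries. With TMM scaling it was 18.5%, 14.3% and 12.3% in EV, against 2.999%, 2.96% and 6.30% in Intracellular libraries. For miR-361-3p the order was the reverse, with an Intracellular coefficient of variation of 5.02% by CPM and 31.6% with TMM. The median SD of log2 CPM of the 7 was 0.28 in EV and 0.46 in Intracellular libraries, where that of all tested miRNAs was 0.37 and 0.51. With TMM these medians were 0.30 and 0.15, against 0.37 and 0.26 for all tested. Low counts widen the spread of many of the latter, and in EV also that of miR-107-3p, miR-425-5p, miR-361-5p and miR-361-3p. The part of low counts in these medians was not tested.

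The choice of the reference set how many miRNAs were called. miR-107-3p, miR-425-5p, miR-361-5p and miR-361-3p had 7 to 27 counts per EV library, and scaling by them carries that counting error into the EV libraries. The edgeR SE of miR-103-3p was 0.52 when scaled by miR-107-3p or miR-425-5p, 0.37 by miR-361-5p and 0.31 by miR-361-3p. It was 0.22 by miR-191a-5p, 0.26 by miR-186-5p and 0.19 with TMM. miR-107-3p, with the larger SE, had 15 to 27 counts per EV library, against 11 to 16 for miR-361-3p. The part of counting error in these SEs and in the number of calls was not tested. When scaled by miR-361-3p alone, edgeR called 148 of the 328 tested miRNAs (45.1%) higher in EV and 1 (0.305%) lower. When scaled by miR-361-5p alone, the other arm of the hairpin, it called 52 (15.9%) higher and 131 (39.9%) lower. Scaling by miR-103-3p gave 132 (40.2%) higher and 3 (0.915%) lower. Scaling by miR-191a-5p gave 95 (29%) higher and 15 (4.57%) lower, by miR-186-5p 66 (20.1%) and 88 (26.8%), and by miR-425-5p 39 (11.9%) and 73 (22.3%). Scaling by miR-107-3p gave 72 (22%) higher and 0 (0%) lower, with 2 lower at an unadjusted p under 0.05 (limma on log2 of TPM + 1 called 2 lower). Over all tested miRNAs the median log2 fold change moved with the reference, being 0.97 for miR-361-3p, 0.62 for miR-103-3p, 0.30 for miR-107-3p, 0.21 for miR-191a-5p, -0.41 for miR-186-5p, -0.82 for miR-361-5p and -0.90 for miR-425-5p. With TMM it was -0.06 and with total counts 0.55. The geometric mean of the 7 gave a median of -0.0021 with 80 higher and 41 lower, near the 84 and 56 of TMM.

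**Figure D5:**
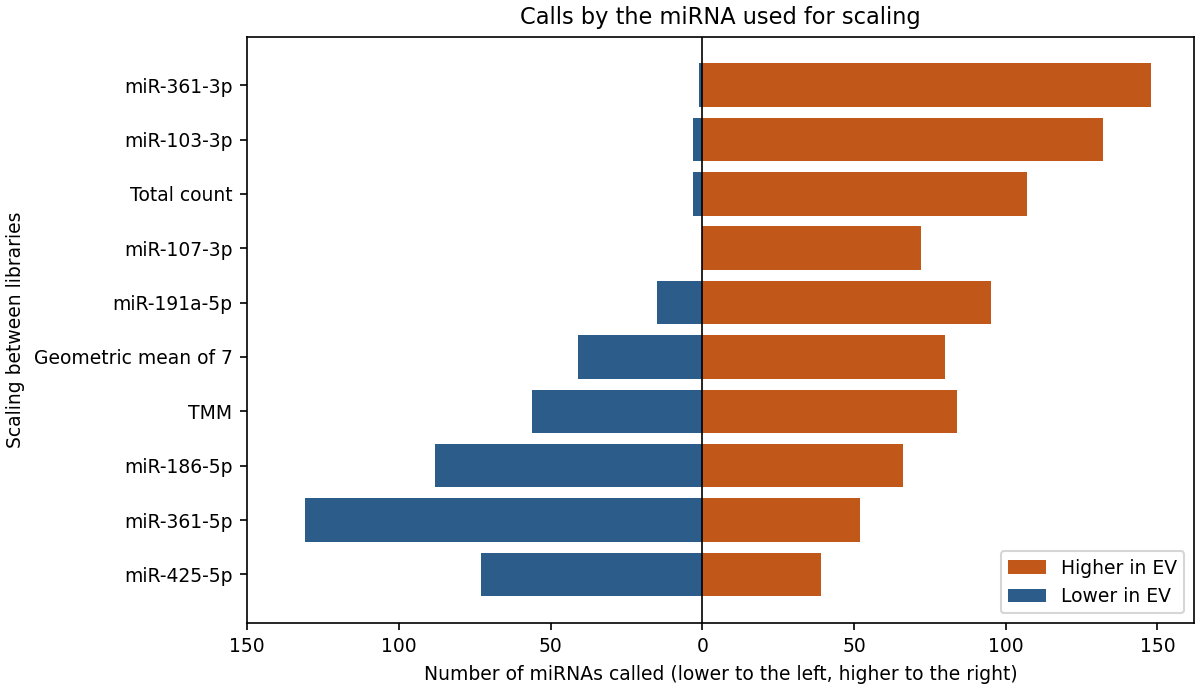
Number of the 328 tested miRNAs called higher in EV (right) and lower (left) by edgeR with libraries scaled by TMM, by total counts, by the geometric mean of the 7 miRNAs or by each of them alone. Lower calls run from 0 with miR-107-3p to 131 with miR-361-5p.

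Of 19 other miRNAs often used as references, all passed the filter, and 5 were called higher and 7 lower in EV with edgeR and TMM, where 25.6% of all tested were called higher and 17.1% lower. The higher ones were miR-423-5p (log2 fold change 3.27), miR-92a-3p (2.53, from 17 EV counts), miR-320-3p (2.39), miR-484 (1.48) and miR-23a-3p (1.39). The lower ones were let-7a-5p (-1.06), let-7d-5p (-0.87), let-7g-5p (-0.86), let-7i-5p (-1.12), miR-25-3p (-0.53), miR-26a-5p (-0.75) and miR-30c-5p (-0.80). With total counts 6 were higher and 1, let-7i-5p, was lower, where 32.6% and 0.915% of all tested were called, and miR-25-3p had a log2 fold change of 0.10. Over the 11 other scalings the 5 higher miRNAs kept their direction, while all 7 lower ones turned when scaled by miR-361-3p (let-7i-5p to 0.06) and miR-25-3p also when scaled by miR-103-3p. The median log2 fold change of the 19 was -0.35 with TMM, against -0.06 for all tested, and 0.20 with total counts, against 0.55 for all tested. Not called in either fit were miR-16-5p, miR-24-3p, miR-30e-5p, miR-93-5p, miR-151-5p and miR-181a-5p, with TMM values from -0.65 for miR-30e-5p to 0.20 for miR-24-3p.

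The miRNAs whose levels followed the 7 most closely were found by the SD over the 6 libraries of the log2 ratio to the geometric mean of the 7, among 105 other known miRNAs with at least 30 counts in every library. The smallest SD was that of miR-181b-5p, at 0.065, followed by miR-409b (0.119), miR-434-3p (0.150), miR-495 (0.157) and miR-196a-5p (0.162). The median of the 105 was 0.407. Among the 7 themselves the SD ran from 0.165 for miR-191a-5p to 0.634 for miR-425-5p, although each is part of that mean. miR-107-3p, miR-425-5p, miR-361-5p and miR-361-3p had lowest counts of 15, 8, 7 and 11, under the limit set for the 105. Their SDs thus carry more counting error and are not on a par with the median of the 105. miR-181b-5p averaged 1586 CPM in EV, against 1052 CPM in the Intracellular ones, and its log2 ratio to the geometric mean differed by -0.02 between EV and Intracellular. These 5 were picked from the same 6 libraries, so their closeness is a description of these libraries.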

How the data were processed

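Small RNA of 3 EV and 3 Intracellular samples was sequenced. Per the labels' protocols, both adapters were added by ligation, followed by PCR and size selection on a gel. No molecular identifiers are named, so intervals and floors cover only the error of counting. The submitters' processing notes name cutadapt and build Rnor_6.0. The program that aligned the reads, the one that counted them and the source of the miRNA annotation are not given in the sources at hand. The authors deposited 1 table of raw counts, a whole number for each mature miRNA and library. The TPM table deposited by the authors equals these counts scaled to 1000000 per library, within 4.8e-05, so it has no length term and is called CPM here. Column names give the group and the replicate number, which tie them to samples.

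EV was set against Intracellular with edgeR 4.0.16's quasi-likelihood test (R 4.3.3), using TMM, filterByExpr (minimum count 10, minimum total 15), robust dispersions and no block (2-sided). A call has an adjusted p (Benjamini-Hochberg, over 328 miRNAs) under 0.05. Standard errors came from the F statistic. Scaling by a miRNA set library sizes proportional to its counts. Log2 ratios (0.5 added to counts) were compared by exact permutation tests with scipy 1.17.1. Alternatives were other scalings, filters, prior counts of 0 and 1, DESeq2 1.42.0, limma 3.58.1 on log2(TPM + 1) and log2(TPM + 0.1), a replicate block, and each library left out with the tested miRNAs kept. All 7 miRNAs are named, the other references and marker lists are counted, and the 5 closest miRNAs follow a fixed rule. The members and lists were chosen with earlier results of these data known.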

Additional observations from a re-analysis of the deposited data

How the results depend on the processing

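With TMM and edgeR 84 miRNAs were higher and 56 lower in EV, 1 of the 7 references higher and 2 lower. Higher calls numbered 132, 39, 52 and 148 when scaled by miR-103-3p, miR-425-5p, miR-361-5p and miR-361-3p, and 197 with no filter. Lower calls numbered 3 with total counts, 92 with upper quartile, 36 with at least 10 counts in 3 libraries, 2 with limma at either pseudocount, and 3, 0, 15, 88, 131 and 1 when scaled by miR-103-3p, miR-107-3p, miR-191a-5p, miR-186-5p, miR-361-5p and miR-361-3p. Leaving out 1 library gave 62 to 91 higher and 18 to 58 lower, the 18 without EV replicate 1, 26 without EV replicate 2 and 36 without Intracellular replicate 3. Of the 7, 3 were higher with total counts, 2 with limma, 0 with upper quartile, no filter and DESeq2, 3 when scaled by miR-103-3p or miR-191a-5p, 4 by miR-361-3p and 0 by miR-107-3p, miR-425-5p, miR-186-5p or miR-361-5p. Lower were 0 with total counts, limma and scaling by miR-103-3p, miR-107-3p or miR-361-3p, 1 by miR-191a-5p and 4 by miR-361-5p. Leaving out 1 library gave 0 to 2 of each. Where 0 of the 7 were called in 1 direction, 2 to 5 had an unadjusted p under 0.05 in either direction, which includes those called in the other. No reference was called in either direction only when scaled by miR-107-3p (2 with an unadjusted p under 0.05) and without EV replicate 1 (4).

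Signs turned for miR-103-3p (0.37 when scaled by miR-361-3p), for miR-107-3p (0.25 with total counts, 0.34 by miR-103-3p, 0.68 by miR-361-3p, 0.31 with limma at either pseudocount), for miR-191a-5p (0.36, 0.43 by miR-103-3p, 0.091 by miR-107-3p, 0.80 by miR-361-3p, 0.39 with limma) and for miR-186-5p (-0.38 by miR-425-5p, -0.34 by miR-361-5p). The cause was not tested, beyond the shift each scaling makes by construction. Leaving out 1 library, the difference in log2 ratio ran from -0.19 to 0.16 for miR-107-3p over miR-191a-5p and from -0.40 to 0.69 for miR-425-5p over miR-361-5p. geNorm M then ran from 0.527 to 0.847 for miR-361-5p and from 0.629 to 0.900 for miR-425-5p. Pairs without overlap numbered 12 with no prior count and 13 with a prior of 1. Without 1 library they numbered 14 to 16, but leaving out a library cannot lower this number, so it is no check. Pairs that changed by less than 0.5 numbered 5 to 7.

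Same-numbered libraries showed little shared deviation (r of 0.012 to 0.041 across miRNAs), and libraries of different number gave r of -0.079 to 0.038. EV deviations carry much counting error, so these values cannot tell whether the numbers pair the samples. With a replicate block 87 were higher and 46 lower, and the calls of the 7 were kept (miR-103-3p -0.68, miR-361-3p -1.07 and miR-425-5p 0.97). Depth limits EV values of miR-425-5p, miR-361-5p and miR-361-3p, which rest on 7 to 18 counts per library.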
